A study of Mus musculus with 98 samples.

Results

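The spleens of mice given a trauma-hemorrhage injury were compared between 2 groups of arrays that the labels code c and x. The arrays were chosen by title and tissue alone, and 11 of the 98 arrays of the series belong here: 6 carry the code c and 5 the code x. The series measured RNA from mouse blood and spleen on a one-colour oligonucleotide array, in 3 models that the labels name trauma-hemorrhage, burn and LPS (lipopolysaccharide, a bacterial cell wall component). Every spleen array of the trauma-hemorrhage model carries the letter E, which the labels do not explain, and the labels describe the c and the x arrays in the same words, as spleen of injured mice. The meaning of c and x, the strain, the age, the time after injury and the number of animals are not given in the sources used here, so differences are given as coded, x minus c. Because nothing says that the arrays came from separate animals, the p-values speak only of how far these arrays scatter, and that scatter could be technical. The title numbers of the c arrays form 1 consecutive run and those of the x arrays another, so that code and numbering cannot be told apart.

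The spleen filters blood and hosts immune responses. Its white pulp is made of B and T lymphocytes arranged in follicles and sheaths, while macrophages of the red pulp take up aged red cells and return their iron to the blood through the exporter ferroportin. Interferons and inflammatory cytokines act on nearly all of these cells: interferons switch on antiviral genes through STAT and IRF factors, and microbial or injury signals switch on cytokines and chemokines through NF-kB.

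The arrays were alike in their basic properties. The median deposited intensity was 92.3 ± 1.93 (SD, n = 6) in c and 91.5 ± 1.46 (SD, n = 5) in x, and 4.69% ± 0.208 and 4.72% ± 0.293 of the probe sets lay at the lowest value of the set, 11.14. The log2 ratio of the 3' to the 5' beta-actin control was 1.84 ± 0.198 in c and 1.97 ± 0.288 in x. That of the Gapdh control was 2.81 ± 0.118 and 2.81 ± 0.0646, so that the 3' signal was the stronger in both groups. The adjusted p was 0.965 for each of the 4 measures (exact two-sided permutation test over 462 splits). Pearson's r over all probe sets was 0.985 to 0.990 between c arrays, 0.975 to 0.987 between x arrays and 0.950 to 0.974 between a c and an x array. The B cell and T cell markers that define white pulp were above the lowest value on all 11 arrays.

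All 20 measured interferon response genes, the metallothionein genes Mt1 and Mt2 and the chemokine genes Cxcl2, Cxcl9, Cxcl10 and Ccl4 were higher in x, while 10 of 14 B cell markers, 10 of 14 T cell markers and Slc40a1, the iron exporter of red pulp macrophages, were lower. Of 22626 probe sets, 1807 (7.99%) were higher and 2679 (11.8%) lower in x at an adjusted p under 0.05 (limma, Benjamini-Hochberg). With each of 12393 genes represented by its brightest probe set, 1068 genes (8.62%) rose and 1708 (13.8%) fell. The median called rise was 0.47 and the median called fall -0.42 on the log2 scale, and the median over all genes was -0.0018. Falls were more frequent, but large changes were mostly rises: 208 genes (1.68%) rose by at least 1 log2 and 83 (0.670%) fell by as much. For 683 genes (5.51%) every x array lay above every c array, and for 1201 (9.69%) every x array lay below. Levels and differences are on the scale of quantile-normalized log2(intensity + 16), which understates the change of dim genes.

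**Figure D1:**
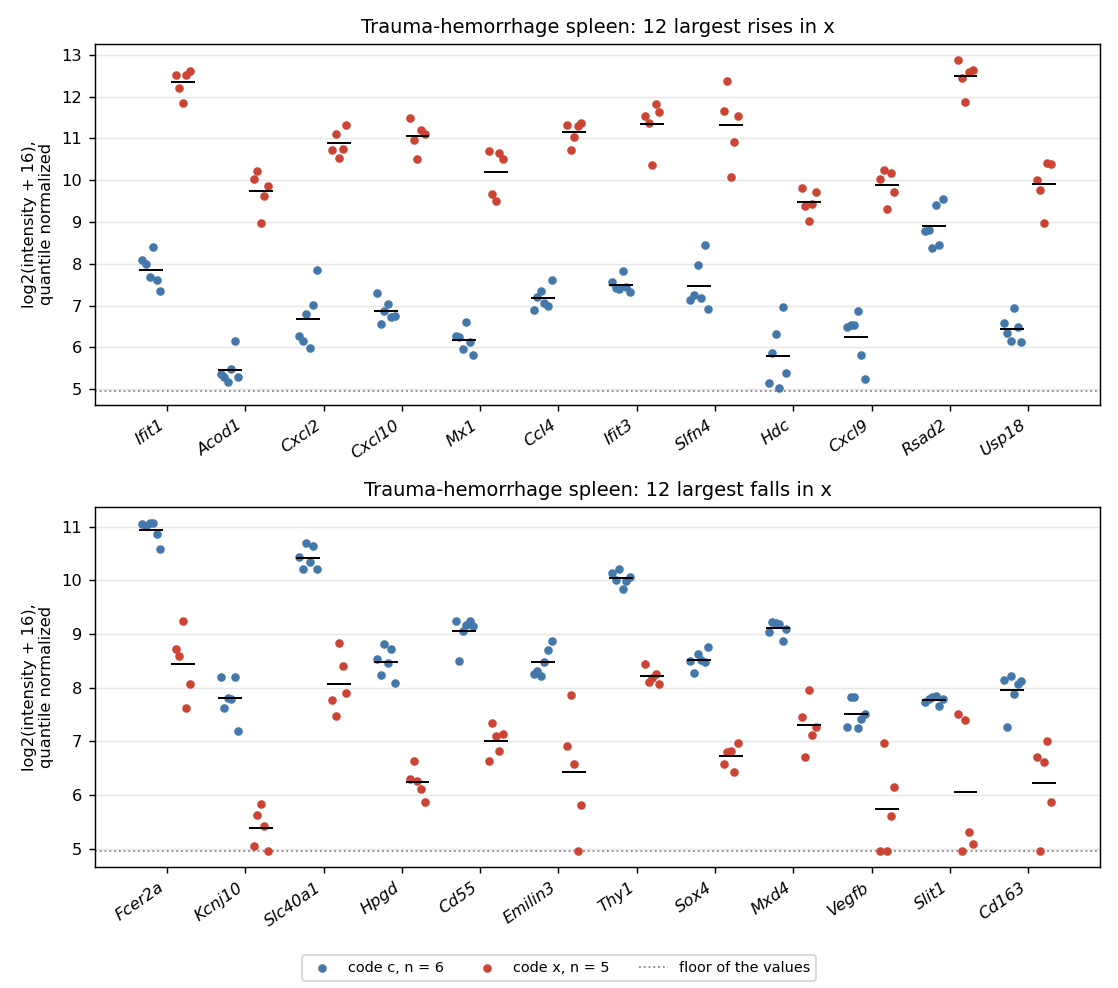
Level of the 12 genes with the largest rise (top) and the 12 with the largest fall (bottom) on every trauma-hemorrhage spleen array, as quantile-normalized log2(intensity + 16). Each point is 1 array (6 of code c, 5 of code x), black lines are group means and the dotted line is the lowest value. The groups do not overlap for any of the 24 genes. On the dotted line lie 2 x arrays of Vegfb and 1 x array each of Kcnj10, Emilin3, Slit1 and Cd163.

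The largest rise was that of Ifit1, which encodes a protein that binds viral RNA lacking the host's cap methylation. On the c arrays its level ranged from 7.34 to 8.40 with a median of 7.85, and on the 5 x arrays it was 12.52, 12.20, 11.86, 12.52 and 12.62. The difference was 4.49 ± 0.20 (SE), or 22.4-fold on this scale (limma, adjusted p = 6.31e-07). Ifit3, of the same family, ranged from 7.34 to 7.83 in c (median 7.43) and was 11.55, 11.37, 10.37, 11.82 and 11.64 in x. The groups were apart, with x replicate 3 the lowest x array. Mx1, an antiviral GTPase, ranged from 5.82 to 6.60 in c (median 6.19) and was 10.69, 9.68, 9.50, 10.65 and 10.51 in x.

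Rsad2 (viperin, which makes a chain-terminating nucleotide) rose from 8.39 to 9.55 in c (median 8.80) to 12.87, 12.46, 11.87, 12.60 and 12.63 in x. Usp18, the protease that removes ISG15 from proteins and dampens interferon receptor signalling, ranged from 6.12 to 6.93 in c (median 6.42) and was 9.996, 9.77, 8.97, 10.41 and 10.39 in x. The chemokines Cxcl10 and Cxcl9 attract T and NK cells through CXCR3. Cxcl10 ranged from 6.56 to 7.30 in c (median 6.81) and was 11.50, 10.96, 10.51, 11.20 and 11.11 in x, a difference of 4.18 ± 0.17 (adjusted p = 5.91e-07). Cxcl9 ranged from 5.26 to 6.87 in c (median 6.51) and was 10.02, 10.24, 9.32, 10.17 and 9.72 in x.

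All 20 measured members of the list of 22 interferon response genes rose, with a median of 2.73 against -0.0018 over all genes. In all 20 every x array lay above every c array, against 5.51% of all genes. Ifit2 rose by 3.23 ± 0.17. Named after their values were seen, the smallest rises were those of the transcription factors Irf1 (0.90 ± 0.13) and Stat2 (0.91 ± 0.15) and of the GTPase Gbp3 (1.06 ± 0.15), and Irf7, the factor that amplifies interferon production, rose by 2.07 ± 0.20. The list's mean level lay between 7.65 and 8.12 on the c arrays. It was 9.81 on x replicate 3 and between 10.69 and 10.79 on the other x arrays. In each of the 20 genes x replicate 3 was the lowest x array, and without it the list's median was 3.0 and all 20 members still rose.

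A promoter sequence was at hand for 9 of the 12 largest rises. Shown here are the 5 that hold the motif to which interferon-activated factors bind, and Cxcl2, which holds an NF-kB motif instead, because these genes carry the 2 largest groups of rises. Acod1, Slfn4 and Hdc also had a sequence and held 0 matches to either motif. The sequences are the 250 bases before the annotated start, 5' to 3' on the gene's strand, from RefSeq with build GRCm38.p6. In the first 5, capitals mark each match to the core of the interferon-stimulated response element, GAAANNGAA, on either strand, and matches that overlap run together. In the last, Cxcl2, capitals mark each match to GGGNNTTTC, part of a site that NF-kB binds, on either strand. They lie at chr19:34640639-34640888 on the plus strand (Ifit1), chr19:34583279-34583528 on the plus strand (Ifit3), chr12:26456453-26456702 on the minus strand (Rsad2), chr5:92348890-92349139 on the minus strand (Cxcl10), chr5:92328080-92328329 on the minus strand (Cxcl9) and chr5:90903649-90903898 on the plus strand (Cxcl2).
Ifit1: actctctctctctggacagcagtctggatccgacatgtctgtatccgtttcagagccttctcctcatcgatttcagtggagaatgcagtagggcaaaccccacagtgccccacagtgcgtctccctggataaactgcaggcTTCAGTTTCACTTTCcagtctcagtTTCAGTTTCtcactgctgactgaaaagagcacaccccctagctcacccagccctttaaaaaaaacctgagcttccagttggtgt
Ifit3: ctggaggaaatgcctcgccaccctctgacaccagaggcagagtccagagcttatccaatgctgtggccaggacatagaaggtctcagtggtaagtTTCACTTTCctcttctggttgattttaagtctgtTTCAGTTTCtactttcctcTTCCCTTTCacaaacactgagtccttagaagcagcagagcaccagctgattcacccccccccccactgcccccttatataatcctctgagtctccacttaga
Rsad2: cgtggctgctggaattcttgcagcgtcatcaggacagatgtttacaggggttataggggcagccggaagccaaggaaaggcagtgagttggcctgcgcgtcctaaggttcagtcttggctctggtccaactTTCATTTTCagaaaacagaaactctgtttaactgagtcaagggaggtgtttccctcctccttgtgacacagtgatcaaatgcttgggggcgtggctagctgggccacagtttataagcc
Cxcl10: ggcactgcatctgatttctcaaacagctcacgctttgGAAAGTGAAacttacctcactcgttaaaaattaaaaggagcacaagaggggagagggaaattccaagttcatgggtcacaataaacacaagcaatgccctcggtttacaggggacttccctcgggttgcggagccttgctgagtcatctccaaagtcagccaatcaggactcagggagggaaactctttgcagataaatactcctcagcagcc
Cxcl9: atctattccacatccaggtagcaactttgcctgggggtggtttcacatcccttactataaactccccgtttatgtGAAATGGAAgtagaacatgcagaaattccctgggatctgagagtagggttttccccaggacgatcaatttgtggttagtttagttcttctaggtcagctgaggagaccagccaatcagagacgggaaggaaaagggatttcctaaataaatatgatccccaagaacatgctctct
Cxcl2: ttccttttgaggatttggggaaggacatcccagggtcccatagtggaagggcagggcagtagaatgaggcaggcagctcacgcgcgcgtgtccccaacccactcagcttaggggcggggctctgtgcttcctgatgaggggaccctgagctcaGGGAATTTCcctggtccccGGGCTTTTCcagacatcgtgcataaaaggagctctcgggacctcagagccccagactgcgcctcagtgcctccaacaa

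The Ifit1 promoter holds 3 matches to GAAANNGAA, which begin 109, 103 and 84 bases before the start, the first pair overlapping, and the Ifit3 promoter holds 3, at 155, 121 and 102 bases. Rsad2 has 1 match at 119 bases, Cxcl10 has 1 at 213 bases and Cxcl9 has 1 at 175 bases, counted on the gene's strand. Of the 20 measured interferon response genes, 17 had a promoter sequence and 11 of these (64.7%) held the motif, against 2342 of all 32851 promoters (7.13%). Here and below, a gene of a set counted if any of its promoter sequences held the motif, while the share of all promoters counts each sequence. The units are thus unlike, in a way that can favour the sets. Of the 12 largest falls, 8 had a sequence and 0 held it. Of the 23 measured inflammatory genes, 17 had a sequence and 7 (41.2%) held GGGNNTTTC, against 1223 of all promoters (3.72%). Cxcl2 holds 2 matches to it, at 97 and 78 bases, and Cxcl9 also holds 1. The core of the metal response element, TGCACNC, was searched in the same way and lay in 2 of the 17 interferon response genes (11.8%), 0 of the 9 largest rises and 4 of the 8 largest falls with a sequence, against 3417 of all promoters (10.4%). Matches to the first pair of motifs overlap 0 times in these 6 promoters, and a match of letters is a description, not a binding site.

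Inflammatory cytokines and chemokines formed the second large group of rises. Of 23 measured members of 25 listed, 17 rose and none fell (8.62% and 13.8% of all genes), with a median of 0.89. In 16 of the 17 the groups did not overlap, where for 5.51% of all genes every x array lay above every c array. The exception, Tnfaip3, an inhibitor of NF-kB signalling named after its value was seen, lost its call without c replicate 2, 4 or 5 or x replicate 1, 3 or 5 (0.23 to 0.29, adjusted p from 0.0525 to 0.068). Acod1, whose enzyme makes itaconate in activated macrophages, ranged from 5.16 to 6.16 in c (median 5.32) and was 10.02, 10.21, 8.99, 9.63 and 9.85 in x. Cxcl2, a chemokine that attracts neutrophils through CXCR2, ranged from 5.98 to 7.85 in c (median 6.54) and was 10.72, 11.10, 10.54, 10.75 and 11.33 in x. The c arrays were thus more spread than the x arrays, yet the lowest x array was over 2 log2 units above the highest c array. Ccl4, a chemokine made by activated macrophages, ranged from 6.89 to 7.61 in c (median 7.13) and was 11.33, 10.72, 11.03, 11.30 and 11.38 in x, the smallest p of all named genes (difference 3.96 ± 0.15, adjusted p = 3.64e-07).

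Bcl3, an atypical inhibitor of NF-kB that acts in the nucleus, rose by 1.74 ± 0.14, and Icam1, the endothelial and leukocyte ligand of LFA-1, by 0.77 ± 0.06. Further members, named after their values were seen, were the cytokines Il1b (1.5 ± 0.19), Il6 (1.62 ± 0.23, with 3 of 6 c arrays at the lowest value), Tnf (0.71 ± 0.08) and Il10 (1.03 ± 0.13). The decoy receptor Il1r2 rose by 2.49 ± 0.31. Cxcl1 lay at the lowest value on all 6 c arrays and between 5.0 and 6.32 on the x arrays, so that its groups did not overlap either, but its difference of 0.55 ± 0.20 did not pass (adjusted p = 0.0871). Neither did Ccl2 (0.21 ± 0.12), Nfkb2 (-0.10 ± 0.07) or Ptgs2 (0.04 ± 0.11).

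Slfn4 and Hdc complete the 12 largest rises. Slfn4, a Schlafen family gene of myeloid cells, ranged from 6.91 to 8.44 in c (median 7.21) and was 11.65, 12.38, 10.08, 10.92 and 11.53 in x. Hdc, whose enzyme makes histamine, ranged from 5.02 to 6.97 in c (median 5.63) and was 9.81, 9.38, 9.02, 9.44 and 9.71 in x. Its second probe set also passed but rose by only 0.69. Hdc was the only riser among 10 measured markers of basophils, mast cells and eosinophils, and the mast cell protease Cma1 fell by 0.44. These counts are near the shares of all genes, 8.62% for rises and 13.8% for falls. Of the 10 markers, 9 lay below the median level of all probe sets. The mast cell and basophil genes Cpa3 (-0.19 ± 0.07), Fcer1a (-0.21 ± 0.11) and Mcpt8 (0.14 ± 0.08) did not pass. In 11 of the 12 largest rises x replicate 3 was the lowest x array. The next rises after the 12 were those of Cd14 (3.40), Gzmb (3.34) and Oas2 (3.29).

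The metallothioneins Mt1 and Mt2, small proteins that bind zinc and copper, were higher in x. Mt1 ranged from 7.40 to 7.76 in c (median 7.57) and was 10.57, 10.27, 10.69, 11.23 and 10.83 in x, and Mt2 ranged from 6.63 to 6.95 in c (median 6.76) and was 9.26, 8.80, 9.37, 10.07 and 9.70. Their differences were 3.14 ± 0.14 (adjusted p = 8.13e-07) and 2.66 ± 0.18 (adjusted p = 6.05e-06), with every x array over 1 log2 unit above the c arrays. Of 12 measured members of this list 7 rose and 2 fell (8.62% and 13.8% of all genes), with a median of 0.34. The mitochondrial superoxide dismutase Sod2 rose by 1.12 ± 0.10 and the cystine transporter Slc7a11 by 0.74 ± 0.08. Catalase (Cat) fell by 0.95 and, named after its value was seen, glutathione peroxidase Gpx1 fell by 0.63, while Hmox1, the heme-degrading enzyme, differed by -0.00 ± 0.08.

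Acute phase and antimicrobial genes rose in part: 7 of 14 measured members rose and none fell (8.62% and 13.8% of all genes), with a median of 0.35. Saa3, a serum amyloid made by macrophages, ranged from 5.96 to 6.83 in c (median 6.04) and was 8.74, 10.21, 8.44, 8.85 and 9.11 in x. Socs3, the feedback inhibitor of IL-6 signalling, rose by 1.65 ± 0.19 and the transcription factor Cebpb by 1.63 ± 0.19. Lcn2, which withholds bacterial siderophores, rose by 1.89 ± 0.34 and the hemoglobin scavenger haptoglobin (Hp) by 1.47 ± 0.29, but in both the groups overlapped. The arginine and polyamine list had 5 rises and no fall among 8 measured members. Odc1, the first enzyme of polyamine synthesis, rose by 1.07 ± 0.11 and the mitochondrial arginase Arg2 by 1.54 ± 0.22. Nos2, inducible nitric oxide synthase, rose by 0.40 ± 0.12, a call lost when any array other than c replicate 6 was left out (adjusted p from 0.0514 to 0.1).

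**Figure D2:**
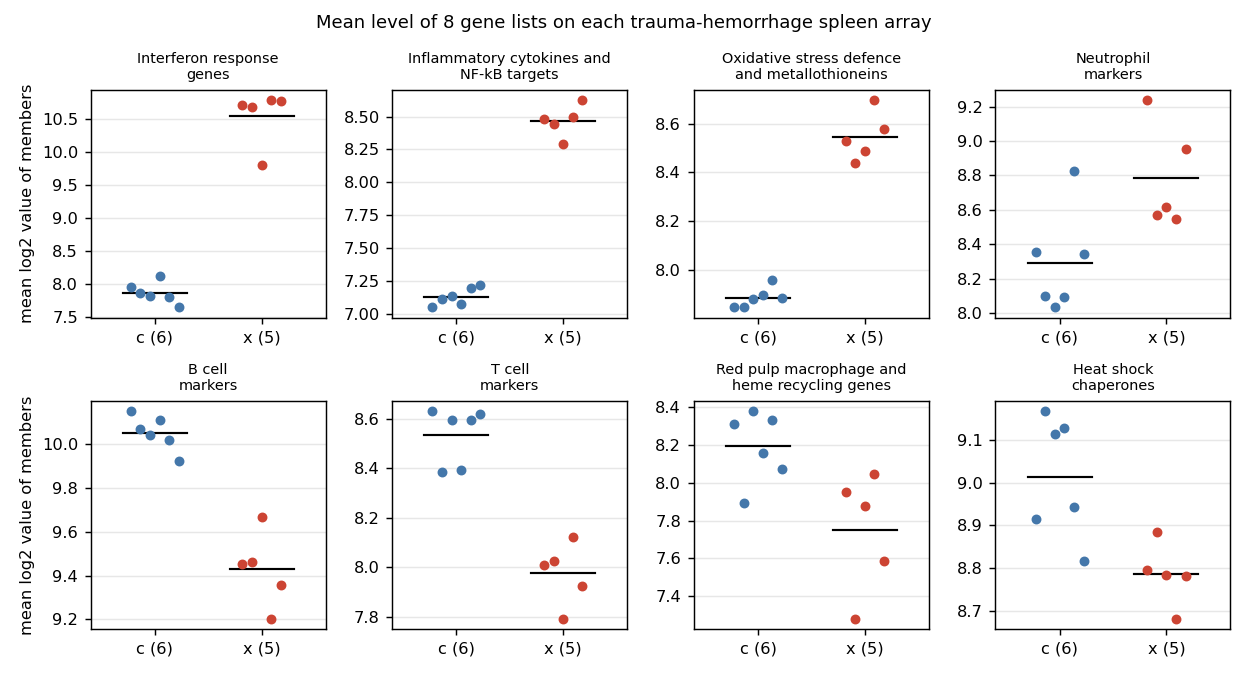
Mean log2 level of the measured members of 8 gene lists on each trauma-hemorrhage spleen array (6 of code c, 5 of code x); black lines are group means, and each panel has its own axis, which does not start at 0. The interferon, inflammatory, oxidative stress, B cell and T cell means do not overlap between the groups, and x replicate 3 lies apart at 9.81 in the interferon panel.

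B cell markers were lower in x. Of 14 measured members 10 fell and none rose (13.8% and 8.62% of all genes), with a median of -0.38. In 4 every x array lay below every c array, against 9.69% of all genes. Without x replicate 5 the number of falls was 6, and without any other single array it was 7 to 11. Fcer2a (CD23, the low-affinity IgE receptor of mature follicular B cells) showed the largest fall of all genes: it ranged from 10.59 to 11.07 in c (median 11.04) and was 8.73, 8.6, 9.24, 7.62 and 8.08 in x, a difference of -2.50 ± 0.24 (adjusted p = 4.64e-05). A second probe set of Fcer2a differed by only -0.09 and did not pass. Cr2, the complement receptor of B cells and follicular dendritic cells, ranged from 10.01 to 10.44 in c (median 10.39) and was 8.77, 9.34, 9.31, 8.59 and 8.75 in x. Cd79b, a signalling chain of the B cell receptor, fell by 1.13, and the transcription factor Spib by 0.94. Named after their values were seen, the other receptor chain Cd79a fell by 0.33 and Ms4a1 (CD20) by 0.28. Both calls were lost without normalization, with median centring or without x replicate 5, and Ms4a1 also without c replicate 1, 2 or 4 (-0.21 to -0.29 over both genes), while the B cell factor Pax5 differed by 0.16 ± 0.15 and did not pass. In whole spleen, fewer cells of a type and less of its RNA per cell cannot be told apart.

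T cell markers fell to a like extent: 10 of 14 measured members fell and none rose (13.8% and 8.62% of all genes), with a median of -0.46. In 7 of the 14 every x array lay below every c array, against 9.69% of all genes. Cd5, which damps antigen receptor signals, ranged from 8.49 to 8.99 in c (median 8.63) and was 6.97, 7.40, 7.0, 6.85 and 6.86 in x, a difference of -1.64 ± 0.11 (adjusted p = 5.95e-06). The costimulatory receptor Cd28 fell by 0.98, the transcription factor Bcl11b by 0.89, the receptor chain Cd3g by 0.85 and the adaptor Lat by 0.65. Named after their values were seen, Cd4 fell by 0.38 and Cd8a by 0.47, whereas Cd3d (-0.23 ± 0.10), Zap70 (0.16 ± 0.11) and Cd247 (-0.09 ± 0.11) did not pass. Thy1, a surface glycoprotein of T cells outside the list, ranged from 9.84 to 10.21 in c (median 10.04) and was 8.44, 8.10, 8.18, 8.27 and 8.06 in x.

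Other lymphocyte lists were mixed. For scale, 8.62% of all genes rose and 13.8% fell, so that a single rise or fall says little about a short list. Of 10 measured NK and cytotoxic cell markers 3 rose and 3 fell. Gzmb, the granzyme that starts apoptosis in target cells, ranged from 7.57 to 7.78 in c (median 7.67) and was 10.97, 11.38, 10.13, 11.51 and 11.08 in x. Ccl5 rose by 1.09 ± 0.10 and Gzma by 0.75 ± 0.15, while the receptor chain Klrd1 fell by 1.01 and the granule protein Nkg7 by 0.61. Among 7 plasma cell markers, Prdm1 (Blimp-1) rose by 0.87 ± 0.12 and the TACI receptor Tnfrsf13b fell by 0.87. Of 8 MHC class II genes, H2-DMa, a chain of the peptide exchange factor, fell by 0.62, the class II transactivator Ciita fell by 0.73 and H2-DMb2 rose by 0.45 ± 0.10.

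Red pulp macrophage genes moved in both directions, with 3 rises and 3 falls among 14 members (8.62% and 13.8% of all genes). Their median was -0.13, which was -0.02 without x replicate 2 and -0.21 without x replicate 4. Slc40a1 (ferroportin, the iron exporter) ranged from 10.21 to 10.69 in c (median 10.39) and was 7.78, 7.48, 8.83, 8.40 and 7.90 in x, a difference of -2.35 ± 0.22 (adjusted p = 3.34e-05). Hpgd, the enzyme that inactivates prostaglandins, ranged from 8.08 to 8.82 in c (median 8.50) and was 6.30, 6.64, 6.26, 6.11 and 5.86 in x. Cd163, the scavenger receptor for hemoglobin bound to haptoglobin, ranged from 7.28 to 8.21 in c (median 8.09) and was 6.71, 4.96, 6.61, 7.01 and 5.87 in x, with replicate 2 at the lowest value. Spic, the transcription factor that specifies red pulp macrophages, moved the other way: it ranged from 6.21 to 7.08 in c (median 6.60) and was 8.16, 7.26, 7.93, 8.32 and 7.74 in x (1.22 ± 0.20, adjusted p = 0.0015). The iron and metal transporter of phagosomes, Slc11a1, rose by 0.42 ± 0.09. The third rise, that of Siglec1, was named after its value was seen. Its call was lost without c replicate 3, 4, 5 or 6 or any single x array (0.19 to 0.23, limma, adjusted p from 0.059 to 0.0966). The complement components C1qa, C1qb and C1qc, which macrophages of this kind also express, differed by -0.05, 0.03 and -0.12 and did not pass.

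Myeloid markers were also split. Of 11 monocyte and macrophage markers 4 rose and 3 fell (8.62% and 13.8% of all genes). Cd14, the LPS co-receptor, ranged from 7.68 to 9.11 in c (median 7.91) and was 11.41, 11.11, 11.57, 11.81 and 11.55 in x. Ms4a6d rose by 2.36 ± 0.22, the Fc receptors Fcgr4 and Fcgr1 rose by 1.53 ± 0.15 and 0.86 ± 0.16, and the growth factor receptor Csf1r fell by 0.69. Of 15 neutrophil markers 5 rose and none fell, with a median of 0.21, which was 0.13 without x replicate 1 and 0.49 without x replicate 2. S100a9 rose by 0.97 ± 0.20 and S100a8 by 0.83 ± 0.19, the chains of calprotectin, and Cd177 rose by 1.13 ± 0.23. Mmp8 rose by 1.35 ± 0.37, a call lost when any of c replicates 1, 2, 4 or 6 or x replicates 1 or 5 was left out (1.19 to 1.35, adjusted p from 0.0532 to 0.0648). The neutrophil list's mean level ranged from 8.03 to 8.82 in c and from 8.55 to 9.24 in x, so its groups overlapped. Of 10 dendritic cell markers Itgax (CD11c) fell by 1.14, the factor Zbtb46 fell by 0.50 and Cd83, a maturation marker, rose by 1.36 ± 0.19.

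The remaining large falls belong to none of the 32 lists. Kcnj10, an inwardly rectifying potassium channel, ranged from 7.19 to 8.20 in c (median 7.80) and was 5.05, 5.62, 5.84, 5.43 and 4.96 in x, with replicate 5 at the lowest value. Cd55 (decay-accelerating factor, which protects cells from complement) ranged from 8.51 to 9.24 in c (median 9.16) and was 6.63, 7.34, 7.09, 6.82 and 7.13 in x. Sox4, a transcription factor of lymphocyte development, ranged from 8.28 to 8.76 in c (median 8.51) and was 6.58, 6.80, 6.82, 6.44 and 6.97 in x. Of its 6 probe sets 3 fell and none rose. Mxd4, a repressor that competes with Myc for Max, ranged from 8.88 to 9.23 in c (median 9.14) and was 7.46, 6.70, 7.96, 7.12 and 7.27 in x, while Myc itself rose by 1.24 ± 0.11.

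The other 3 of the 12 falls rest on wide x groups, and each x value of 4.96 among them is the lowest value of the set. Emilin3, an extracellular matrix glycoprotein, was 6.91, 7.87, 6.58, 4.96 and 5.82 in x against 8.22 to 8.88 in c (median 8.40). Vegfb, a growth factor of the VEGF family, was 4.96, 6.97, 4.96, 5.6 and 6.16 in x against 7.25 to 7.83 in c (median 7.46). Slit1, an axon guidance ligand, was 7.51, 4.96, 7.40, 5.32 and 5.09 in x against 7.66 to 7.85 in c (median 7.79), so that x replicates 1 and 3 lay just below the c arrays. Its difference of -1.72 ± 0.47 (adjusted p = 0.0248) did not pass without x replicate 2, 4 or 5, with values from -1.45 to -1.54 and adjusted p from 0.0564 to 0.0641. The next falls after the 12 were those of Cabp5 (-1.71), Cd5 (-1.64) and Idh1 (-1.64).

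**Figure D3:**
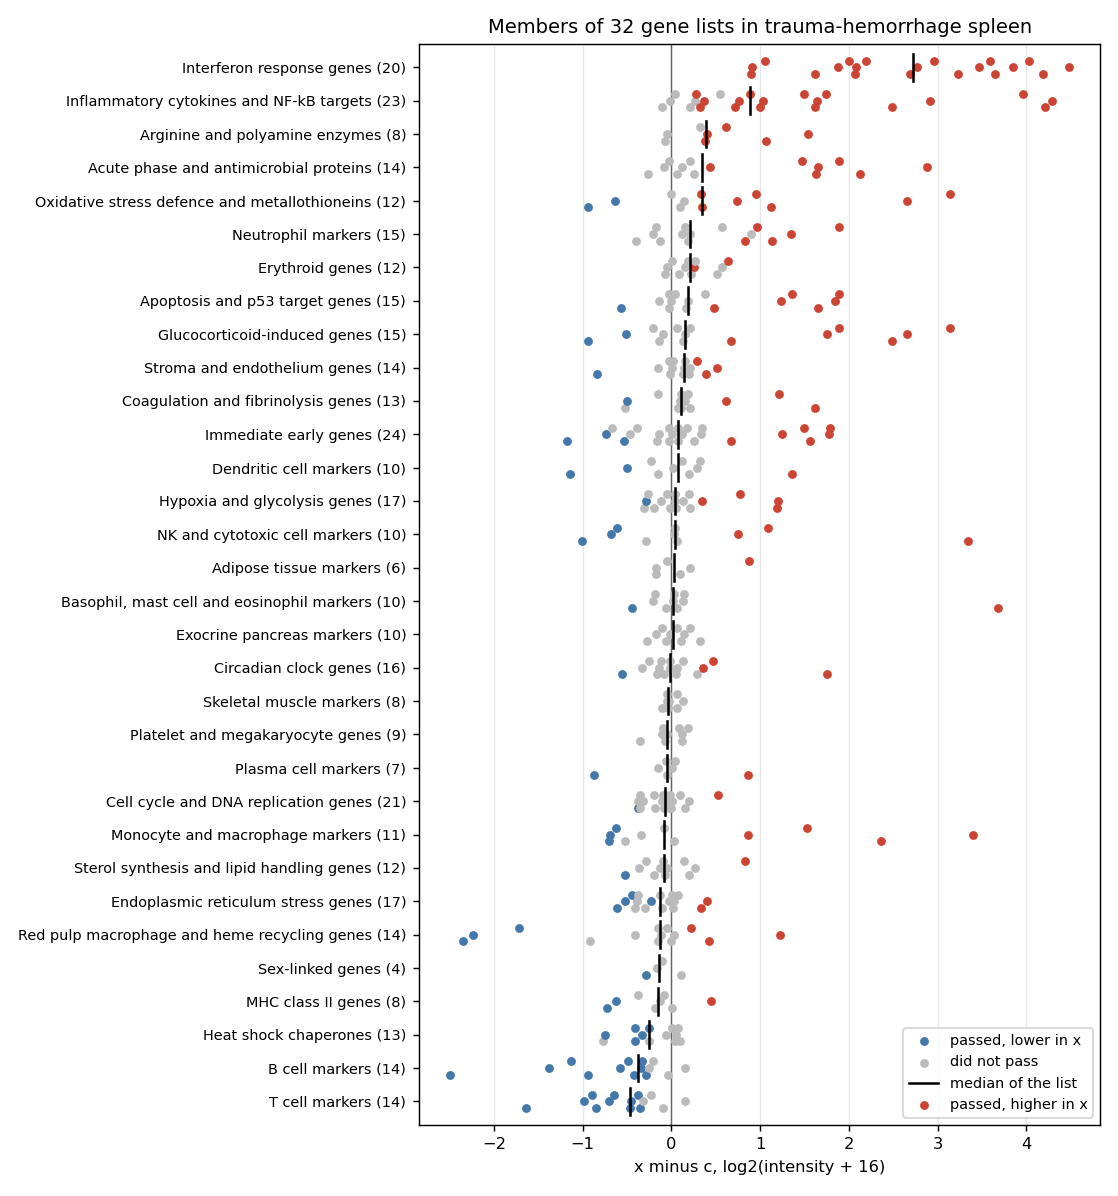
Difference x minus c in trauma-hemorrhage spleen, in log2(intensity + 16), of every measured member of 32 gene lists, ordered by the list median (black line); the number of measured members is in brackets, and some genes stand in several lists. Red and blue points passed at an adjusted p under 0.05, and grey points did not. All 20 interferon genes are red, and the B cell and T cell lists hold 10 blue points each and no red one.

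Stress and metabolic lists changed in part of their members. Over all genes 8.62% rose and 13.8% fell. Rises in the glucocorticoid and apoptosis lists were more frequent than that, and falls were not. The glucocorticoid list's mean level was 7.652 to 8.055 on the c arrays and 8.509 to 8.768 on the x arrays. That of the apoptosis list was 7.803 to 7.991 in c and 8.304 to 8.592 in x. Of 15 glucocorticoid-induced genes 6 rose and 2 fell, with a median of 0.16. Without any single array other than c replicate 6 or x replicate 2 only 1 fell. The risers Mt1, Mt2, Cdkn1a and Il1r2 also stand in other lists, Tgm2 (transglutaminase) rose by 1.75 ± 0.12, and the classical target Fkbp5 (0.16 ± 0.26) and Tsc22d3 (-0.09 ± 0.17), named after their values were seen, did not pass. Of 15 apoptosis and p53 target genes 6 rose and 1 fell. Cdkn1a (p21, a cyclin-dependent kinase inhibitor) ranged from 5.93 to 6.12 in c (median 6.07) and was 8.11, 7.42, 7.71, 8.28 and 8.23 in x. The death receptor Fas rose by 1.36 ± 0.12 and the pro-apoptotic Bcl2l11 (Bim) by 1.24 ± 0.12, and Gadd45b and Gadd45g rose by 1.65 ± 0.17 and 1.84 ± 0.20.

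Of 24 immediate early genes 6 rose and 3 fell (8.62% and 13.8% of all genes), with a median of 0.08, so that falls were no more frequent than among all genes. Jun rose by 1.56 ± 0.16, Ier3 and Atf3 by 1.78 each and Rgs1 by 1.5 ± 0.16. Fos differed by -0.47 ± 0.38 and Egr1 by -0.38 ± 0.19 and did not pass. Of 13 heat shock chaperones 5 fell and none rose, with a median of -0.25, and without c replicate 4 or x replicate 4 only 3 fell. The co-chaperone Dnajb1 fell by 0.75, and the falls of Hspa8 (0.26) and Dnaja1 (0.34) were small. Both calls were lost without normalization or with median centring, Hspa8 also without c replicate 4 or 5 or x replicate 1, 4 or 5 (-0.22 to -0.26), and Dnaja1 without c replicate 2, 3, 4 or 5 or x replicate 1, 2, 3 or 4 (-0.28 to -0.35). Of 17 endoplasmic reticulum stress genes 2 rose and 4 fell (7 without c replicate 6), among them Asns (0.40 ± 0.07) and Dnajc3 (-0.53 ± 0.11). Of 17 hypoxia and glycolysis genes 4 rose and 1 fell. The glycolytic regulators Pfkfb3 and Hk2 rose by 1.19 ± 0.08 and 1.2 ± 0.17 and the transcription factor Hif1a by 0.77 ± 0.09, while Slc2a1 and Vegfa did not pass.

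Of 16 circadian clock genes 3 rose and 1 fell (8.62% and 13.8% of all genes): Nfil3 rose by 1.76 ± 0.23 and Dbp, which opposes it at the same sites, fell by 0.55. Of 13 coagulation genes 3 rose and 1 fell, led by Thbs1 (thrombospondin, 1.62 ± 0.18) and the protein C receptor Procr (1.21 ± 0.23). Of 12 sterol and lipid genes the lipid droplet protein Plin2 rose by 0.83 ± 0.10 and Hmgcs1 fell by 0.52, a call lost without c replicate 2 or 3 (-0.48 and -0.49). Of 21 cell cycle genes Mcm4 rose by 0.52 ± 0.12 and Mcm7 fell by 0.38. The sterol and cell cycle lists thus held no larger share of rises or falls than all genes did.

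Lists for other cells and tissues held few calls or none, where 8.62% of all genes rose and 13.8% fell. The shares of rises in the stroma, erythroid and adipose lists were above that of all genes, but rest on few genes. No member of the platelet (9), exocrine pancreas (10) and skeletal muscle (8) lists passed in limma, and the unadjusted p was under 0.05 for 1, 2 and 0 of them. Of 12 erythroid genes Slc4a1 (band 3) rose by 0.64 ± 0.10 and Gata1 by 0.26 ± 0.08. Of 14 stroma and endothelium genes Kdr (0.52 ± 0.09), Sparc (0.39 ± 0.07) and Dcn (0.29 ± 0.09) rose and Stab2, a scavenger receptor of sinusoidal endothelium, fell by 0.83. The fatty acid binding protein Fabp4 (0.88 ± 0.25) was the riser among 6 adipose markers, and Kdm5d (-0.29 ± 0.09) the faller among 4 sex-linked genes. Of these calls, Gata1 was lost without c replicate 1, 2 or 3 or x replicate 1, 3, 4 or 5 (0.21 to 0.26, adjusted p from 0.0583 to 0.09), and Dcn without c replicate 1, 3, 4, 5 or 6 or x replicate 1, 4 or 5 (0.23 to 0.31, adjusted p from 0.0543 to 0.11). Fabp4 was lost without c replicate 1, 3, 5 or 6 or x replicate 4 (0.84 to 0.88, adjusted p from 0.0544 to 0.0626), and Kdm5d without c replicate 1 to 5 or x replicate 2 or 4 (-0.27 to -0.30, adjusted p from 0.0549 to 0.083).

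The same contrast was then set beside those of burn spleen (5 c and 6 x arrays), LPS spleen (6 and 6) and trauma-hemorrhage blood of letter E (6 and 6), in which x minus c was called for 2659 (11.8%), 503 (2.22%) and 3532 (15.6%) probe sets. No array is shared between the sets, and each set differs from the others in more than the model, such as its lowest value, so that model and array set cannot be told apart. Tested as a difference of differences, x minus c in trauma-hemorrhage spleen departed from burn spleen in 4062 probe sets (18.0%), from LPS spleen in 2008 (8.87%) and from trauma-hemorrhage blood in 4332 (19.1%).

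**Figure D4:**
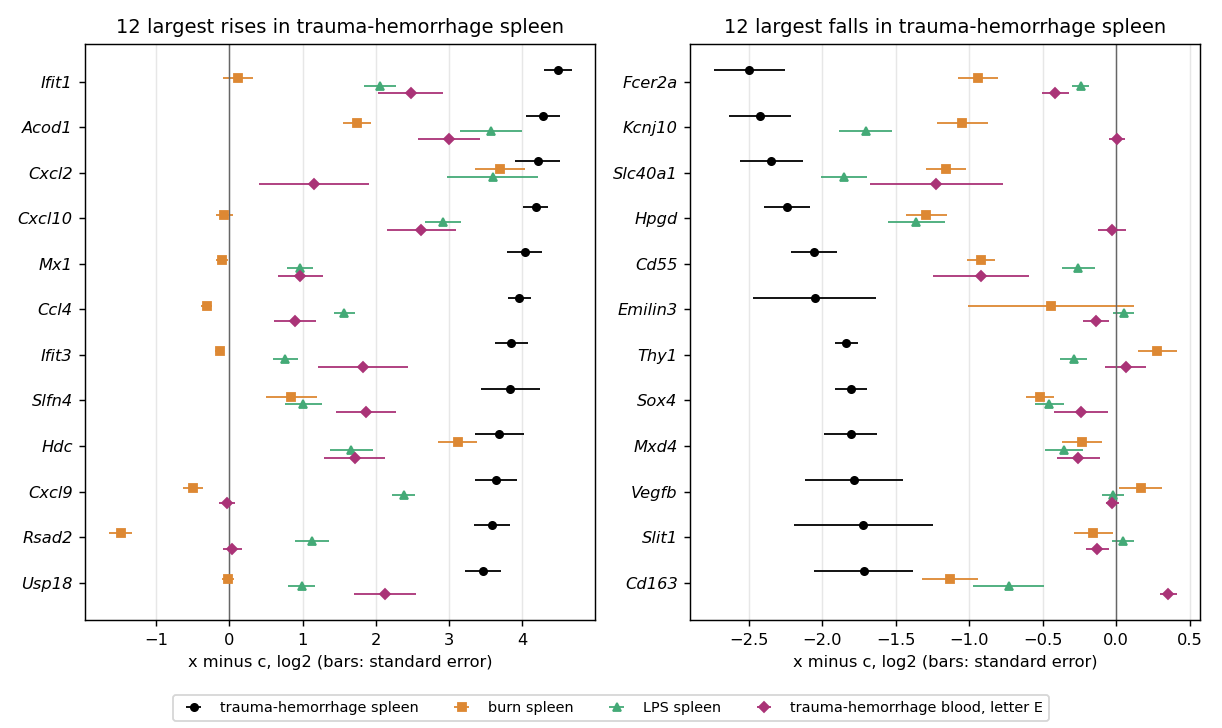
Difference x minus c (log2, points) with its standard error (bars) of the 12 largest rises (left) and the 12 largest falls (right) of trauma-hemorrhage spleen, in that set and in burn spleen, LPS spleen and trauma-hemorrhage blood of letter E. Ifit1 stands at 4.49 in trauma-hemorrhage spleen and at 0.12 in burn spleen, while Cxcl2 stands at 4.21 and 3.70; the 12 were chosen for their size in the first set, so that its points lie farthest out in part by that choice.

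Of the 1068 genes that rose in trauma-hemorrhage spleen, 201 (18.8%) also rose in burn spleen, which is 24.3% of the 828 risers there, and 71 fell there. In LPS spleen 195 (18.3%) also rose, which is 84.4% of its 231 risers, and 2 fell. In trauma-hemorrhage blood 288 (27.0%) also rose, which is 35.9% of its 802 risers, and 56 fell. Of the 1708 genes that fell, 250 (14.6%) fell in burn spleen, 81 (4.74%) in LPS spleen and 203 (11.9%) in blood, or 34.8%, 79.4% and 16.6% of the fallers in each, and 103, 0 and 42 rose. Over all genes 6.68% rose and 5.79% fell in burn spleen, 1.86% and 0.823% in LPS spleen and 6.47% and 9.89% in blood. The opposite calls in burn spleen and the shared falls in blood were near these shares.

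The interferon genes differed between the sets. In burn spleen none of the 20 rose and 2 fell (6.68% and 5.79% of all genes did so), with a median of -0.05, and all 20 differed between the sets, above burn (8.17% of all genes did). Rsad2 fell by 1.49 in burn spleen, a difference between sets of 5.07 ± 0.32 (adjusted p = 9.97e-13). Cxcl9 was also lower there (-0.50 ± 0.13, limma, adjusted p = 0.0354), and Cxcl10 differed by -0.07 ± 0.11. In LPS spleen 16 of the 20 rose (1.86% of all genes), with a median of 0.77, and 19 were higher in trauma-hemorrhage spleen by the test of the difference (3.95% of all genes). The exception was Irf1, with 0.48 in LPS spleen (adjusted p of the difference 0.121). In blood 12 rose (6.47% of all genes), with a median of 1.51, and 12 differed above blood (9.81% of all genes). Cxcl9, at -0.03 ± 0.11 in blood, and Rsad2, at 0.04 ± 0.13, had the largest differences from it, 3.68 ± 0.30 and 3.55 ± 0.26. Outside the list, Cxcl11 and Oas2 rose by 3.01 and 3.29 in trauma-hemorrhage spleen and were at -0.00 and 0.31 in LPS spleen, and Isg20 rose by 2.73 against -0.35 in blood. A second probe set of Cxcl11 differed by only 0.20 in trauma-hemorrhage spleen and did not pass.

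Other changes went the same way in more than 1 set. Cxcl2 rose by 3.70 ± 0.34 in burn spleen and by 3.60 ± 0.62 in LPS spleen, and its differences between the sets, 0.51 ± 0.67 and 0.62 ± 0.66, did not pass, which leaves intervals too wide to show equal rises. Hdc rose by 3.12 ± 0.27 in burn spleen and Il1r2 by 2.70 ± 0.15, and neither difference passed. Acod1 rose by 1.74 ± 0.19 in burn spleen, 3.58 ± 0.42 in LPS spleen and 3.0 ± 0.43 in blood, and only the difference from burn spleen passed (2.55 ± 0.45, adjusted p = 0.000106). Slc40a1 fell by 1.16 in burn spleen and by 1.85 in LPS spleen; its fall here was larger than in burn spleen (-1.19 ± 0.26, adjusted p = 0.00105), and the difference from LPS spleen did not pass (-0.49 ± 0.25, adjusted p = 0.271). Hpgd fell by 1.29 and 1.36, each less than here (differences of -0.95 ± 0.25 and -0.88 ± 0.24, adjusted p = 0.00622 and 0.0167). Hpgd stood at -0.03 ± 0.10 in blood, a difference of -2.21 ± 0.19 from spleen. Ccl4 rose by 1.57 in LPS spleen but went the other way in burn spleen, at -0.31 ± 0.07 (limma, adjusted p = 0.016). Mt1 was at 0.11 in burn spleen and 1.37 in LPS spleen. For both genes each of these values lay below that here by the test of the difference.

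T cell markers went opposite ways in the injury models. In burn spleen 6 of the 14 rose and none fell (6.68% and 5.79% of all genes), with a median of 0.39. By the test of the difference, 13 of the 14 lay lower in trauma-hemorrhage spleen (11.7% of all genes). Cd28 rose by 1.30 ± 0.23 in burn spleen, a difference of -2.28 ± 0.24 (adjusted p = 2.46e-08), and Thy1 was at 0.28 ± 0.13 there, a difference of -2.11 ± 0.15. B cell markers fell in both, 9 of the 14 in burn spleen (5.79% of all genes) with a median of -0.36. By the test of the difference 4 lay below burn spleen and 1 above (11.7% and 8.17% of all genes), the latter close to the share of all genes. The heat shock genes Hspa1b and Hspa1a rose by 3.32 ± 0.64 and 2.35 in burn spleen and stood at 0.04 ± 0.15 and -0.06 here. Hspa1a lay close to the lowest value here, with 2 x arrays at it, so that a fall of this gene could hardly show. Ddit4, an inhibitor of mTORC1 signalling, rose by 1.70 ± 0.12 in burn spleen and fell by 0.51 here. The fall of Ddit4 here was lost without any single array other than c replicate 6 or x replicate 2 (-0.42 to -0.53, adjusted p from 0.06 to 0.0989), but its difference from burn spleen was -2.21 ± 0.23 (adjusted p = 1.57e-08). The Cutal gene, at 2.52 in burn spleen and -0.56 here, completed the 5 largest differences in that direction.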

How the data were processed

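RNA of mouse spleen was measured on 11 one-colour arrays of 22690 probe sets. The values are the intensity values of the authors' deposited table, on a linear scale, with the method of summarising and scaling not given in the sources used here. After leaving out 64 control probe sets, values were transformed as log2(intensity + 16) and then quantile normalized within spleen (34 arrays). The x and c arrays of trauma-hemorrhage spleen were compared over 22626 probe sets with limma 3.58.1 in R 4.3.3 (lmFit, eBayes with a trend, Benjamini-Hochberg, adjusted p under 0.05). Differences between sets were contrasts in 1 fit of all spleen arrays, or of trauma-hemorrhage spleen and blood of letter E, each normalized within its tissue.

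Gene symbols came from the platform annotation: 20380 probe sets had 1 symbol, 691 several and 1555 none. A gene was represented by the probe set with the highest mean over the spleen arrays. Named are the 12 largest called rises and 12 largest called falls, up to 5 members of each of 32 gene lists with the smallest p, and the 5 largest differences in each direction from each other set. Members and lists were chosen with earlier results of these data known, so that a list's count is no independent evidence. The alternatives were the pseudocount, the normalization, a filter on dim probe sets, the variance model, array weights, the threshold, a control-ratio covariate and each array left out. The test was tested on simulated data. The number of arrays limits the precision.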

Additional observations from a re-analysis of the deposited data

Results flagged for a closer look

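In 120 groups of values (the 24 leading genes, the mean levels of the 32 gene lists and 4 array measures, each in c and in x), 6 held an array far from the others (5.0%), and chance flags about 1 in 20 such groups. The interferon list's mean level was 9.81 on x replicate 3, and the nearest x array was at 10.69. Acod1 was 6.16 on c replicate 5, with the nearest c array at 5.47. On c replicate 2, Cd163 was 7.28 and Cd55 8.51, with the nearest c arrays at 7.89 and 9.06. The immediate early list's mean level was 8.90 on c replicate 6 against 8.50 on the nearest c array. The skeletal muscle list's mean level was 6.57 on x replicate 1 against 6.38 on the nearest x array.

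By the test of the difference itself, x minus c departed from that of burn spleen in 4062 probe sets, from that of LPS spleen in 2008 and from that of trauma-hemorrhage blood of letter E in 4332.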

How the results depend on the processing

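Of the 128 called genes that the naming rule gives, 113 were called under each alternative that tested them (103 under all 23, and 10 that a filter on dim probe sets left out of 1 or 2) and 15 were not past the threshold under 1 or more, while 13 uncalled genes passed under 1 or more; none turned. The median of the hypoxia and glycolysis list, 0.04, ranged from -0.0011 (without c replicate 6) to 0.098 (without c replicate 3) with each array left out. That of the acute phase list, 0.35, ranged from 0.32 to 0.43 with each array left out and was 1.47 with the filter on dim probe sets, which leaves out some members, and that of the immediate early list, 0.08, ranged from 0.04 (without c replicate 3) to 0.13 (without c replicate 6). Over all 179 called genes followed, list members outside the rule included, 28 missed the threshold under 1 or more alternatives.

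With 1 probe set per gene and a filter on dim probe sets, which tests fewer features, 1024 were higher and 1687 lower, and 2333, 1272 and 2379 differed from burn spleen, LPS spleen and blood. At an adjusted p of 0.01 the counts were 1021, 1612, 2382, 1081 and 1778, and with a difference of at least 1 log2 they were 322, 128, 518, 237 and 408. With each array left out in turn, 1483 to 1854 probe sets were higher and 2291 to 2721 lower, and 3454 to 4098, 1672 to 2289 and 3712 to 4474 differed from the 3 sets. No probe set called in the comparison of x with c turned under any alternative. No paired analysis was possible because the title numbers are not shared between the groups. The number of arrays, 5 and 6, limits what could be called.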
